A study of Homo sapiens with 6 samples.

Results

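The genes described are 7 keratins and 3 plakins of epithelial cells: KRT7, KRT8, KRT18, KRT19, KRT20, KRT23, KRT80, EPPK1, PLEC and DSP. They are 10 of 22412 genes tested, and were found by their annotated symbol on the array, with 1 row per gene, the brightest over all 6 arrays. The set was proposed with differences between the groups compared here already known, so the genes count as chosen by their KHSRP siRNA minus scramble siRNA differences, which are given as a description with no test. Each of the 10 genes had a row annotated with its symbol alone.

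Transcripts were measured in SW480 cells, an established line from a human colorectal adenocarcinoma of Dukes stage B with epithelial morphology. One group is 3 samples given an siRNA against KHSRP, and the other is 3 samples given a non-targeting scramble siRNA. Both groups had 30 pmol of siRNA and 2 µl of a Lipofectamine reagent in 24-well plates for 48 h. The labels call the arrays of a group biological replicates, and no siRNA sequence is printed here. The protein made from KHSRP binds RNA and is known to speed the breakdown of messages that carry AU-rich elements.

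Keratins form the intermediate filaments of epithelial cells. A filament is built from pairs of 1 type I chain, such as KRT18, KRT19, KRT20 or KRT23, with 1 type II chain, such as KRT7, KRT8 or KRT80, and simple epithelia such as that of the gut are known for the KRT8 and KRT18 pair. Plakins are large proteins that tie these filaments to junctions, to actin and to microtubules: desmoplakin (DSP) anchors them at desmosomes, plectin (PLEC) links them to hemidesmosomes and to the other filament systems, and epiplakin (EPPK1) binds along keratin filaments.

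Values are the deposited log2 intensities, per the submitters' processing notes made with RMA, with mean ± SD over 3 arrays, and a difference is KHSRP siRNA minus scramble siRNA with limma's standard error (SE). Values on this table reach 19.93, and no source used here says whether another transform followed RMA, so linear folds hold only if the scale is log2 as labelled. Probe sets differ in brightness per molecule, so no level is set against that of another gene. As a mark of background, the 95th percentile of the means of 366 olfactory receptor genes was 4.73. KHSRP, whose row also carries the annotation MIR3940, stood at 5.62, 5.60 and 5.56 in KHSRP siRNA replicates 1 to 3 and at 5.75, 5.59 and 5.64 in scramble replicates 1 to 3. That difference was -0.07 (SE 0.08, limma adjusted p = 0.804), so it gives no check of the labels, and the groups are named as labelled.

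Of 14 markers of colon epithelium and carcinoma, 7 had a mean above the background mark: EPCAM, CDH1, KRT8, KRT18, KRT19, CDX2 and VIL1. KRT20, CDX1, CDH17, LGALS4, GPA33, CEACAM5 and CEACAM6 lay under it. EPCAM, an epithelial adhesion molecule gene, was at 12.19 ± 0.06 (SD, n = 3) with KHSRP siRNA and 12.11 ± 0.11 (SD, n = 3) with scramble siRNA. Its values are given after they were seen. The log2 of the summed 14 markers, which hold KRT8, KRT18 and KRT19, ran from 16.14 to 16.33 with KHSRP siRNA and from 15.66 to 15.82 with scramble siRNA. Fibroblast and muscle markers had 1 of 8 above the mark (ACTA2), endothelial markers 0 of 6, and leukocyte markers 3 of 7 (CD68, NKG7 and LYZ), with PTPRC, the pan-leukocyte marker, under it. None of the markers in those 3 lists passed the test. The log2 of the summed fibroblast and muscle markers ran from 7.32 to 7.46 with KHSRP siRNA and from 7.25 to 7.41 with scramble siRNA, that of the endothelial markers from 6.35 to 6.40 and from 6.36 to 6.40, and that of the leukocyte markers from 7.38 to 7.59 and from 7.46 to 7.50. Neuronal markers had 2 of 5 above the mark, SNAP25 and SYT1, and the log2 of their sum ran from 8.0 to 8.29 with KHSRP siRNA and from 8.43 to 8.64 with scramble siRNA. Squamous epithelial markers had 4 of 8 above it: SPRR1B, and KRT5, KRT10 and KRT13, which are described with the other keratins. SPRR1B was at 5.30 ± 0.19 with KHSRP siRNA and 5.24 ± 0.07 with scramble siRNA (difference 0.06, SE 0.11, limma adjusted p = 0.894). Whether the neuronal or squamous markers had a part in the differences of the 10 genes was not tested.

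The RefSeq promoter table held 3 of the 10 genes, KRT8, KRT20 and DSP. The 250 bases before the annotated start are shown for KRT20, which was at background, for DSP, whose groups overlapped, and for KRT5. KRT5 is a keratin outside the 10 genes that rose. The window of KRT8, whose KHSRP siRNA arrays lay all above, is described without its sequence. Capitals mark the TATA-like element ATAAAA or, as a separate motif of promoters rich in those letters, the GC box GGGCGG, on either strand, and touching matches run together.
KRT20 (GRCh38.p14, chr17:40885243-40885492, minus strand): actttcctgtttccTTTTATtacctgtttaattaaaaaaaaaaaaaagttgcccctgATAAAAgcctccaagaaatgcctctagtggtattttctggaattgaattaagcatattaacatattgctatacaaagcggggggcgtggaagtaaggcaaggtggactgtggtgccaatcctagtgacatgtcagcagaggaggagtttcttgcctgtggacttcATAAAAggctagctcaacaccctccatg
DSP (GRCh38.p14, chr6:7541421-7541670, plus strand): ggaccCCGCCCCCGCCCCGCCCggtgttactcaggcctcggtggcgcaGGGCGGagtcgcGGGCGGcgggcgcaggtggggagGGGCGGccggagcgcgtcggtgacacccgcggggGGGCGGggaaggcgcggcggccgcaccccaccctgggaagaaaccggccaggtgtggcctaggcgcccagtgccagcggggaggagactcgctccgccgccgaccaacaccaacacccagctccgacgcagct
KRT5 (GRCh38.p14, chr12:52520395-52520644, minus strand): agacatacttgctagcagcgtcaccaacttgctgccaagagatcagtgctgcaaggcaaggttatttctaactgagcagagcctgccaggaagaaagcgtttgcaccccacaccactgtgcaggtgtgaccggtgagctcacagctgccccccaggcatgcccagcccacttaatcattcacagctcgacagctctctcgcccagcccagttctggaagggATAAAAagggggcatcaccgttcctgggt
The motifs searched on both strands were the canonical box TATAAA, its variant marked above, the GC box and the AP-1 site TGANTCA, and all were chosen with the sequences in view. KRT20 held ATAAAA at 3 places, 1 of them starting 28 bases before the start, and KRT5 held it at 1 place, 29 bases before the start, while DSP lacked that element and held the GC box at 7 places. Among 35116 RefSeq windows of this length, 14.8% held the TATA-like element, 42.6% the GC box, 10.7% the canonical box and 6.57% the AP-1 site. The canonical box and the AP-1 site were in none of the windows printed here. The KRT8 window, which lies inside the annotated span of that gene and so marks only 1 of its starts, held none of the 4 motifs. These matches describe letters only.

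Of the 10 genes, 6 had all 3 KHSRP siRNA arrays above all 3 scramble arrays, 0 had them all below, and 4 overlapped. Across all tested genes 11.6% had the KHSRP siRNA arrays all above and 7.82% all below. The 6 were KRT8, KRT18, KRT19, KRT23, KRT80 and EPPK1, and their differences ran from 0.46 to 0.71. KRT7, KRT20, PLEC and DSP overlapped, with differences from -0.04 to 0.18. Over the 10 genes the median difference was 0.48, beside 0.02 over all tested genes. Limma's adjusted threshold, 0.05 over all genes, was passed by 1 of the 10, EPPK1. In the same fit 0.759% of all tested genes passed, 0.509% as higher and 0.250% as lower. EPPK1 did not pass in 9 of 13 alternatives. Of all 170 calls 114 were higher, and after quantile normalization again 11 of 32 were. Nothing is read from these counts, since this contrast chose the genes. In these bulk samples more cells of a kind and more RNA per cell cannot be told apart.

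**Figure D1:**
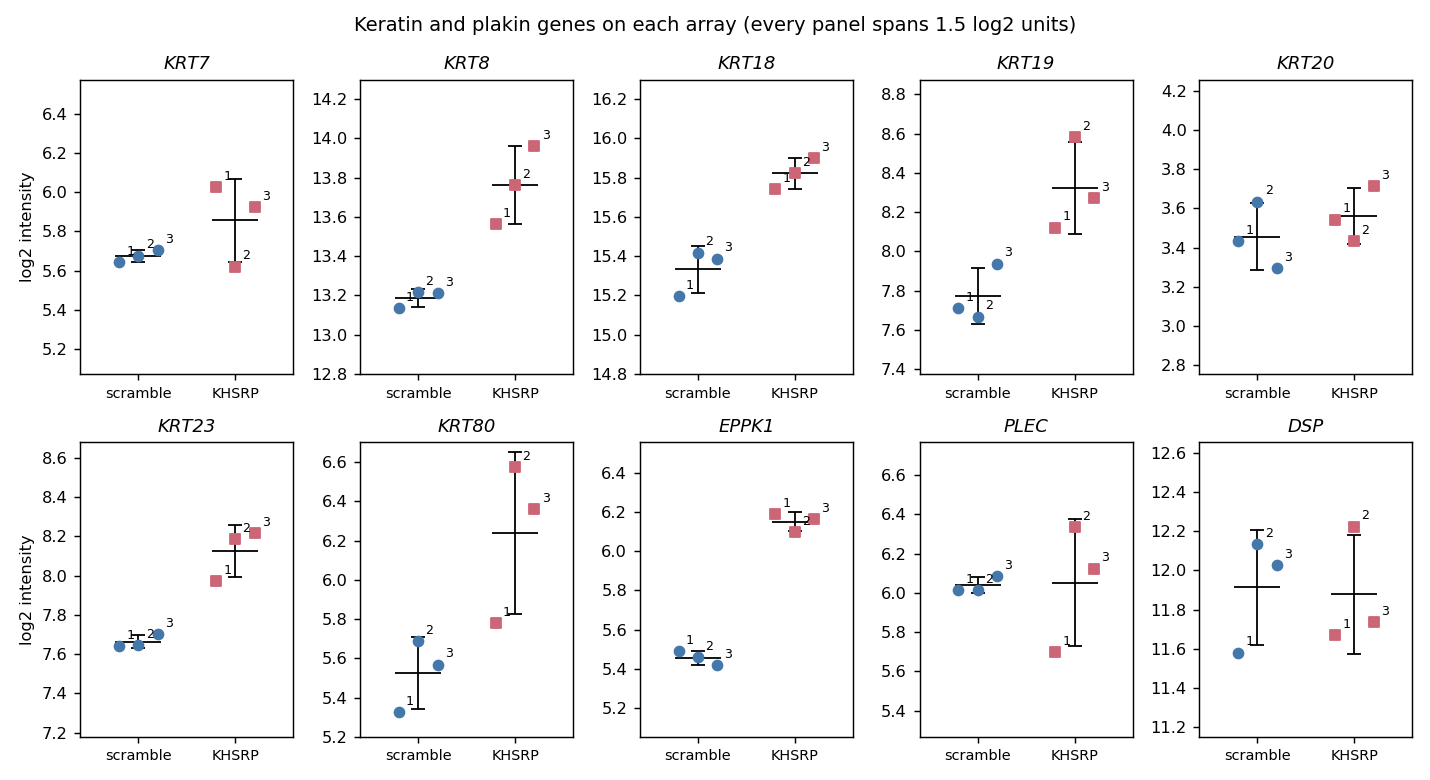
Log2 intensity of each of the 10 genes on the 3 scramble siRNA arrays (circles) and the 3 KHSRP siRNA arrays (squares), with replicate numbers, group mean (bar) and SD (whiskers, n = 3). All panels span the same height. The KHSRP siRNA arrays all lie above the scramble arrays for KRT8, KRT18, KRT19, KRT23, KRT80 and EPPK1, and the groups overlap for the other 4 genes.

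KRT8, the type II keratin of simple epithelia, was at 13.56, 13.76 and 13.96 in KHSRP siRNA replicates 1, 2 and 3. In the scramble arrays it was at 13.13, 13.22 and 13.21. The scramble arrays lay within 0.08 of each other, the KHSRP siRNA arrays within 0.40, and the gap between the groups was 0.34. Group means were 13.76 ± 0.20 (SD, n = 3) and 13.19 ± 0.05 (SD, n = 3), a difference of 0.58 (SE 0.11), or 1.49-fold with a 95% confidence interval from 1.24 to 1.79.

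KRT18, the type I partner of KRT8, lies next to it on chromosome 12 in RefSeq, with no protein-coding gene between them. Its KHSRP siRNA arrays were at 15.74, 15.82 and 15.90, and its scramble arrays at 15.20, 15.42 and 15.39. Within each group the 3 arrays lay closer together than the gap of 0.32 between the groups. The difference was 0.49 (SE 0.09), from 15.33 ± 0.12 to 15.82 ± 0.08, or 1.40-fold with a 95% confidence interval from 1.20 to 1.63. For both partners replicate 1 was the lowest array of its group, and replicate 3 was the highest KHSRP siRNA array.

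A second row was annotated with the KRT8 symbol. The number in its probe-set ID was 8, whereas KRT8 lies on chromosome 12 in RefSeq. Over 21751 rows with an autosomal number in both places, the ID and the RefSeq chromosome matched in 99.8%. That row was at 11.30, 11.96 and 11.96 with KHSRP siRNA and at 10.27, 10.79 and 10.90 with scramble siRNA. Its groups did not overlap, and its difference was 1.09, which makes the KRT8 value 0.83 when both rows are averaged. KRT8 and KRT18 are known for many processed pseudogenes, near-identical copies elsewhere in the genome, and which transcripts each row reads was not tested.

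Of 5 keratin pseudogenes with a row of their own, 4 were above the background mark, and 0 passed limma's threshold, with a median difference of 0.39. At an unadjusted p under 0.05 limma had 3 of them, all higher, where 8.51% of all tested genes were higher and 5.89% lower. KRT8P12 was at 6.64 ± 0.15 and 6.57 ± 0.10 (difference 0.07, SE 0.10, adjusted p = 0.858). KRT18P52 was at 5.60 ± 0.25 with KHSRP siRNA and 5.09 ± 0.18 with scramble siRNA (difference 0.51, SE 0.15, adjusted p = 0.181). The arrays of KRT18P52 did not overlap between groups, and those of KRT8P12 did.

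KRT19, a type I keratin of simple and ductal epithelia with a very short tail, was at 8.12, 8.58 and 8.27 with KHSRP siRNA. With scramble siRNA it was at 7.71, 7.67 and 7.94. The lowest KHSRP siRNA array was 0.18 above the highest scramble array, less than the range of 0.46 within the KHSRP siRNA group. The means, 8.32 ± 0.23 and 7.77 ± 0.14, differed by 0.55 (SE 0.14).

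KRT23, another type I keratin, was at 7.97, 8.19 and 8.22 in the KHSRP siRNA arrays and at 7.64, 7.65 and 7.70 in the scramble arrays. Its scramble arrays lay within 0.06 of each other and the gap to the other group was 0.27. The difference was 0.46 (SE 0.09), from 7.66 ± 0.03 to 8.13 ± 0.13. Its neighbour on chromosome 17 with no protein-coding gene between them is KRT20, a keratin of differentiated intestinal cells. KRT20 was at 3.54, 3.43 and 3.71 with KHSRP siRNA and at 3.43, 3.63 and 3.30 with scramble siRNA. All 6 of these values lie under the background mark of 4.73, and the difference was 0.11 (SE 0.12).

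KRT80, a type II keratin, had the widest spread of the keratins described here. Its KHSRP siRNA arrays were at 5.78, 6.57 and 6.36, and its scramble arrays at 5.33, 5.69 and 5.57. KHSRP siRNA replicate 1 was 0.09 above the highest scramble array, and the other two KHSRP siRNA arrays were further up. The difference was 0.71 (SE 0.21), with a 95% confidence interval from 0.23 to 1.20, and it was 0.94 without KHSRP siRNA replicate 1 and 0.54 without KHSRP siRNA replicate 2.

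KRT7, a type II keratin of ductal epithelia, is the neighbour of KRT80 on chromosome 12 with no protein-coding gene between them. It was at 6.03, 5.62 and 5.92 with KHSRP siRNA and at 5.64, 5.68 and 5.71 with scramble siRNA. KHSRP siRNA replicate 2 lay under all scramble arrays, so the groups overlapped. The difference was 0.18 (SE 0.12), with a 95% confidence interval from -0.09 to 0.45. With KHSRP siRNA replicate 1 left out it was 0.10, and with replicate 2 left out 0.30.

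EPPK1 had the widest gap between groups among the 10 genes, 0.61. Its KHSRP siRNA arrays were at 6.19, 6.10 and 6.16, and its scramble arrays at 5.49, 5.46 and 5.42. Arrays of a group lay within 0.09 of each other. The means were 6.15 ± 0.05 and 5.46 ± 0.04, a difference of 0.69 (SE 0.08), or 1.62-fold with a 95% confidence interval from 1.43 to 1.83.

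PLEC, the neighbour of EPPK1 on chromosome 8 with no protein-coding gene between them, did not share that separation. It was at 5.70, 6.33 and 6.12 with KHSRP siRNA and at 6.01, 6.02 and 6.09 with scramble siRNA. The KHSRP siRNA arrays lay on both sides of the scramble arrays and ranged over 0.63, against 0.07 in the scramble group. The difference of 0.01 (SE 0.16) had a 95% confidence interval from -0.35 to 0.38, and its sign was not settled: it was -0.13 without KHSRP siRNA replicate 2 and 0.19 without replicate 1.

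DSP was at 11.67, 12.22 and 11.74 in the KHSRP siRNA arrays and at 11.58, 12.13 and 12.03 in the scramble arrays. Each group ranged over 0.55, and replicate 1 was the lowest and replicate 2 the highest in both. The difference was -0.04 (SE 0.19), with a 95% confidence interval from -0.49 to 0.42. Without scramble replicate 2 it was 0.07, and without KHSRP siRNA replicate 2 it was -0.21.

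**Figure D2:**
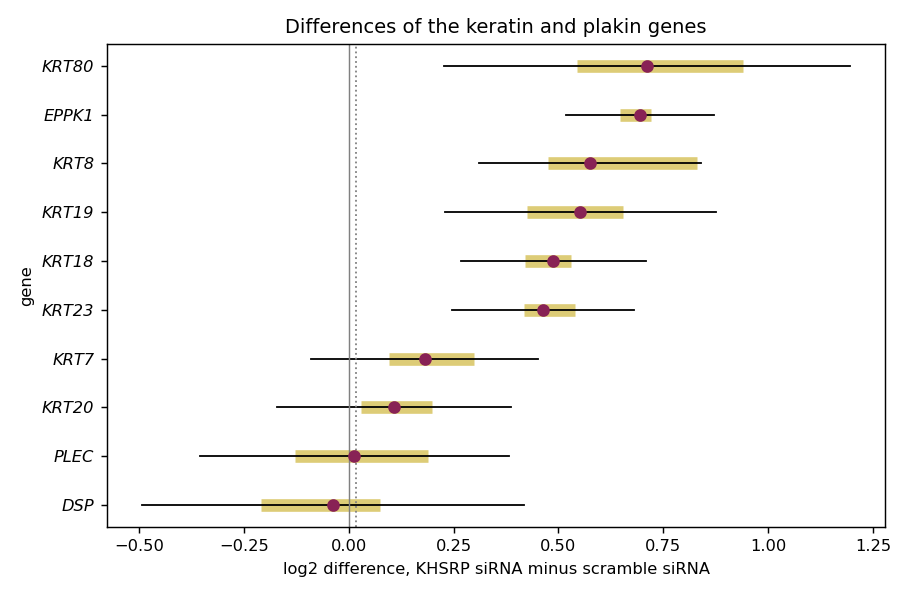
Difference in log2 intensity, KHSRP siRNA minus scramble siRNA, for each of the 10 genes (points), with limma's 95% confidence interval (thin lines) and the range over 13 alternative settings (wide bands). The dotted line is the median over all tested genes, 0.02. KRT80, EPPK1, KRT8, KRT19, KRT18 and KRT23 lie from 0.46 to 0.71, and the bands of PLEC and DSP cross 0.

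The arrays of a group were not alike for these genes. KHSRP siRNA replicate 1 was the lowest array of its group for 7 of the 10 genes and the highest for KRT7 and EPPK1. Scramble replicate 1 was likewise the lowest of its group for 7. Array medians over all rows lay between 4.3 and 4.38 in all 6. Leaving out KHSRP siRNA replicate 1 gave a median difference over the 10 genes of 0.53, and leaving out KHSRP siRNA replicate 2 gave 0.43.

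Likeness of profile was measured as the root mean square difference over the 6 arrays between values centred on each gene's own mean, among 11205 other genes with a mean above the median of all tested genes. For KRT8 the nearest genes were TMEM41A (0.05), LINC00339 (0.06), the tetraspanin gene CD9 (0.06), TMEM51 (0.06) and the sterol oxidase gene MSMO1 (0.07). For KRT18 they were SNORD116-15 (0.05), ZUP1 (0.05), PGLS (0.05), RANBP6 (0.05) and the annexin pseudogene ANXA2P1 (0.06). From KRT8, KRT23 stood at rank 13 (0.08) and KRT18 at rank 27 (0.09), and from KRT18, KRT23 stood at rank 18 and KRT8 at rank 41. EPPK1, KRT19 and KRT80 followed at ranks 232, 403 and 850 from KRT8, then KRT20 at 2566, KRT7 at 2657, PLEC at 4614 and DSP at 7790. From KRT18, EPPK1 stood at rank 399, KRT19 at 642, KRT7 at 2138 and KRT20 at 2671. KRT80 stood behind these from KRT18, at 3173, before PLEC at 5788 and DSP at 7363. KRT20, with a mean of 3.51 under that median of 4.76, is not one of the genes compared. Its ranks place it by how many of them lay nearer. The measure rests on the same 6 arrays as the difference between groups, so it is a description.

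The keratins outside the 10 genes were mostly dark. Of 41 with a row of their own, 7 had a mean above the background mark: KRT5, KRT74, KRT13, KRT6C, KRT15, KRT10 and KRT71. Over all 41 the median difference was 0.04, and 1 passed limma's threshold over all genes as higher and 0 as lower, where 0.509% and 0.250% of all tested genes did. At an unadjusted p under 0.05 there were 4 higher and 1 lower, where 8.51% of all tested genes were higher and 5.89% lower.

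KRT5, the type II keratin of basal cells in stratified epithelia, rose. It was at 12.42, 12.58 and 12.65 with KHSRP siRNA and at 11.27, 11.65 and 11.54 with scramble siRNA. All KHSRP siRNA arrays lay above all scramble arrays. The rise, from 11.49 ± 0.20 to 12.55 ± 0.12, was 1.06 (SE 0.12, limma adjusted p = 0.0438), or 2.08-fold with a 95% confidence interval from 1.71 to 2.54. Its adjusted p ran from 0.0205 to 0.156 over 13 alternatives. In 8 of the 13 alternatives it did not pass, with the difference from 0.95 to 1.14 in all 13. KRT14, the usual type I partner of KRT5, was at 4.08 ± 0.17 and 3.94 ± 0.06, under the background mark in both groups (difference 0.14, adjusted p = 0.649).

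KRT74, a type II keratin of the hair root sheath that lies near KRT5 with KRT71 between them, had values in the other direction. It was at 6.95, 6.93 and 6.98 with KHSRP siRNA and at 7.42, 8.09 and 7.95 with scramble siRNA. Its difference of -0.87 (SE 0.17, limma adjusted p = 0.0705) did not pass, although the groups did not overlap. KRT13, a type I keratin of mucosal stratified epithelia, was at 6.85, 7.15 and 7.48 with KHSRP siRNA and at 6.23, 6.30 and 6.34 with scramble siRNA (difference 0.87, SE 0.15, adjusted p = 0.0597) and did not pass either. KRT10, a type I keratin of differentiating epidermis, was at 5.14 ± 0.05 and 5.05 ± 0.04 (difference 0.10, adjusted p = 0.661). KRT13, KRT14 and KRT10 are named after their values were seen. The log2 of the summed 8 squamous markers, which include KRT5, ran from 12.49 to 12.72 with KHSRP siRNA and from 11.39 to 11.74 with scramble siRNA, while KRT1, KRT4, KRT14 and IVL lay under the background mark.

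By position, 8 of 22 keratin genes on chromosome 12 and 5 of 26 on chromosome 17 were above the mark. On chromosome 12 the KHSRP siRNA arrays lay all above for 5 of those 8 (KRT18, KRT8, KRT5, KRT6C and KRT80) and all below for KRT74, where 11.6% of all tested genes lay all above and 7.82% all below. On chromosome 17 they lay all above for 4 of 5 (KRT19, KRT23, KRT13 and KRT10), and KRT15 overlapped, against the same 11.6% and 7.82%. KRT6C, KRT15 and KRT71 are named after their values were seen. Both sets hold genes of the 10, so these counts describe and do not test. The shares also cover genes under the mark, so they are not matched to these keratins in level.

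**Figure D3:**
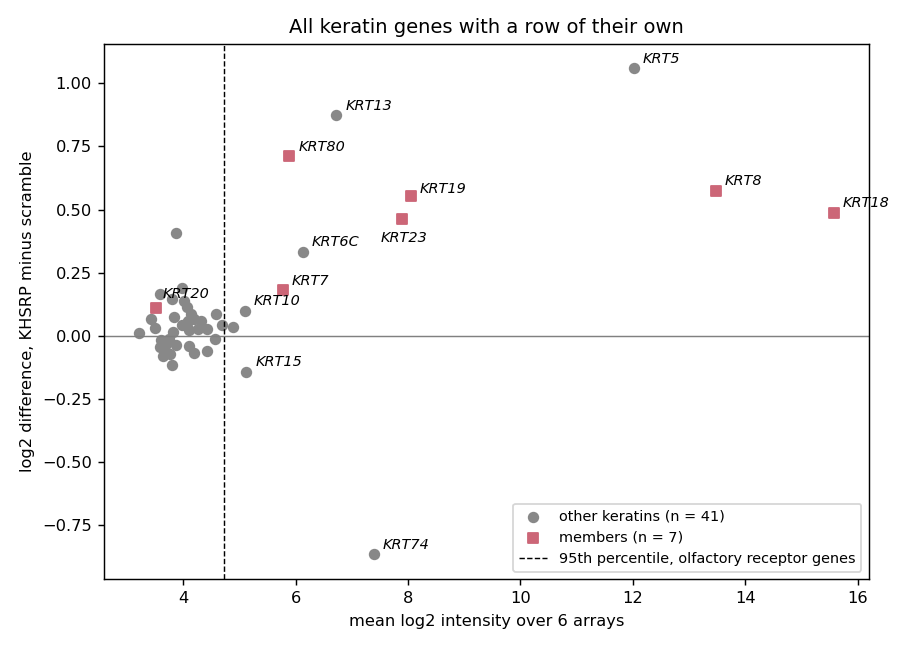
Difference in log2 intensity between KHSRP siRNA and scramble siRNA against the mean over 6 arrays for the 48 keratin genes with a row of their own. Squares are the 7 keratins among the 10 genes, circles the other 41, and the dashed line is the background mark of 4.73. KRT5 lies at 1.06 and KRT74 at -0.87, while most other keratins lie left of the line and near 0.

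Of 4 other plakins measured, 0 passed limma's threshold, where 0.759% of all tested genes did. At an unadjusted p under 0.05 there were 0, where 8.51% of all tested genes were higher and 5.89% lower. All 4 differences were above 0, with a median of 0.16. MACF1, which crosslinks microtubules and actin, was at 9.37 ± 0.46 and 9.15 ± 0.23 (difference 0.22, SE 0.23, adjusted p = 0.771), and over the alternatives it ran from 0.02 to 0.47. DST, which encodes dystonin of hemidesmosomes and neurons, was at 7.03 ± 0.22 and 7.01 ± 0.21 (difference 0.02, SE 0.15, adjusted p = 0.983), with a range from -0.10 to 0.12. Periplakin (PPL) and envoplakin (EVPL), named after their values were seen, had differences of 0.20 (SE 0.13) and 0.12 (SE 0.08), both with a limma adjusted p of 0.572. For EVPL the KHSRP siRNA arrays lay all above the scramble arrays, where 11.6% of all tested genes did.

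Among desmosome genes, which DSP joins to keratins, 0 of 14 passed limma's threshold, with a median difference of 0.08. An unadjusted p under 0.05 was reached by 3 as higher and 1 as lower, beside 8.51% and 5.89% of all tested genes. PKP2, plakophilin of the desmosomal plaque, had the lowest difference of the list: it was at 9.52, 9.42 and 9.23 with KHSRP siRNA and at 9.78, 10.08 and 9.95 with scramble siRNA. Its groups did not overlap, and the difference of -0.55 (SE 0.11, adjusted p = 0.0851) did not pass. PKP4 was at 9.01 ± 0.16 and 9.22 ± 0.10 (difference -0.21, SE 0.11, adjusted p = 0.450). The cadherin gene DSG2 and plakoglobin (JUP), named after their values were seen, differed by 0.18 (SE 0.12) at an adjusted p of 0.579 and by 0.31 (SE 0.16) at an adjusted p of 0.455, and did not pass. The KHSRP siRNA arrays lay all above for 4 of the 14 and all below for 1, where 11.6% and 7.82% of all tested genes did. CDSN (0.39), PERP (0.32) and DSC2 (0.26), named after their values were seen, were among those all above. Their limma adjusted p values were 0.109, 0.238 and 0.272.

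Hemidesmosome genes, whose products PLEC ties to keratins, had 3 of 7 measured, and 0 passed limma's threshold (1 at an unadjusted p under 0.05, as higher, where 8.51% of all tested genes were). ITGA6, an integrin subunit of hemidesmosomes, was at 12.31, 13.28 and 13.23 with KHSRP siRNA and at 12.37, 12.37 and 12.39 with scramble siRNA. Replicate 1 of the KHSRP siRNA group thus sat under the scramble arrays and the other two sat above them. The difference of 0.56 (SE 0.25, adjusted p = 0.358) became 0.88 without KHSRP siRNA replicate 1, where it passed (adjusted p = 0.0240). Over 13 alternatives ITGA6 ran from 0.40 to 0.88, its limma adjusted p reached 0.685, and it passed in 1. Its partner ITGB4, named after its values were seen, was also low in KHSRP siRNA replicate 1. It was at 6.16, 7.15 and 7.01 with KHSRP siRNA and at 6.15, 6.25 and 6.13 with scramble siRNA. The difference of 0.60 (SE 0.24, adjusted p = 0.325) was 0.90 without KHSRP siRNA replicate 1 (adjusted p = 0.0312). Over the 13 alternatives ITGB4 ran from 0.41 to 0.90, its limma adjusted p reached 0.640, and it passed in 1. CD151, a tetraspanin bound to this integrin, was at 7.71 ± 0.24 and 7.52 ± 0.22 (difference 0.19, SE 0.16, adjusted p = 0.693, range 0.05 to 0.31).

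Intermediate filament genes other than keratins had 1 of 18 past the threshold as higher, 0 as lower, and a median difference of 0.03. Unadjusted, 2 were higher and 1 lower at a p under 0.05, beside 8.51% and 5.89% of all tested genes. NES, which encodes nestin, a filament protein of progenitor cells, rose from 6.57, 6.40 and 6.54 with scramble siRNA to 7.10, 7.39 and 7.43 with KHSRP siRNA. NES thus gained 0.80 (SE 0.11, limma adjusted p = 0.0473). Over 13 alternatives that p ran from 0.0238 to 0.169, and NES did not pass in 9 of them. The nuclear lamin gene LMNB1 was at 10.63 ± 0.05 and 11.09 ± 0.25 (difference -0.46, SE 0.13, adjusted p = 0.164). VIM, the filament gene of mesenchymal cells, was at 6.64, 7.50 and 7.11 with KHSRP siRNA and at 6.72, 6.76 and 6.71 with scramble siRNA, so that its groups overlapped through KHSRP siRNA replicate 1 (difference 0.35, SE 0.20, adjusted p = 0.502, range 0.14 to 0.57).

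Of 23 measured genes listed as keratin-binding proteins or filament regulators, 1 passed as higher and 0 as lower, with a median difference of 0.09. Unadjusted, 4 were higher and 0 lower at a p under 0.05, beside 8.51% and 5.89% of all tested genes. The 1 was KRTCAP2, which despite its symbol encodes a subunit of the oligosaccharyltransferase complex and not a keratin-binding protein. It rose from 6.38 ± 0.31 to 7.52 ± 0.11, by 1.14 (SE 0.16, limma adjusted p = 0.0473). Over the alternatives that p ran from 0.0238 to 0.169, and KRTCAP2 did not pass in 10. YWHAE, a 14-3-3 protein of the family that binds phosphorylated keratin, was at 12.89 ± 0.04 and 12.82 ± 0.05 (difference 0.07, SE 0.08, adjusted p = 0.793, range 0.04 to 0.09). PNN, a desmosome-associated and nuclear protein, was at 12.03 ± 0.18 and 12.00 ± 0.10 (difference 0.03, SE 0.11, adjusted p = 0.961, range -0.07 to 0.10).

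Adherens and tight junction genes had 0 of 21 past limma's threshold, with a median difference of 0.11. At an unadjusted p under 0.05 limma had 4 higher and 0 lower, beside 8.51% and 5.89% of all tested genes. CTNNB1, beta-catenin, was at 11.86 ± 0.07 and 12.06 ± 0.10 (difference -0.20, SE 0.09, adjusted p = 0.365), and TJP1, a tight junction scaffold, was at 10.81 ± 0.22 and 10.64 ± 0.02 (difference 0.18, SE 0.12, adjusted p = 0.592, range 0.08 to 0.30). The largest differences of the list were those of CLDN1, a claudin of tight junctions, and the adhesion gene NECTIN2, both named after their values were seen. CLDN1 was at 6.99, 8.21 and 7.99 with KHSRP siRNA and at 6.94, 6.89 and 6.79 with scramble siRNA. Its groups did not overlap, KHSRP siRNA replicate 1 was close to the scramble arrays, and the difference of 0.86 (SE 0.29, adjusted p = 0.236) did not pass. NECTIN2 was at 5.41, 5.92 and 5.86 with KHSRP siRNA and at 5.11, 5.19 and 5.12 with scramble siRNA, again without overlap (difference 0.59, SE 0.14, adjusted p = 0.108). Without KHSRP siRNA replicate 1 CLDN1 was 1.23 (adjusted p = 0.0158) and NECTIN2 0.75 (adjusted p = 0.0312). Over 13 alternatives CLDN1 ran from 0.62 to 1.23, its limma adjusted p reached 0.522, and it passed in 1. NECTIN2 ran from 0.49 to 0.75, its limma adjusted p reached 0.320, and it passed in 2. CDH1, E-cadherin, named after its values were seen, was at 5.87 ± 0.11 and 5.84 ± 0.09 (difference 0.03, SE 0.09, adjusted p = 0.938, range -0.02 to 0.09).

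Epithelial transcription factor genes had 0 of 20 past limma's threshold, with a median difference of 0.04. At an unadjusted p under 0.05 limma had 3 higher and 1 lower, beside 8.51% and 5.89% of all tested genes. SP1, which binds GC boxes, was at 8.79 ± 0.19 and 8.88 ± 0.16 (difference -0.09, SE 0.13, adjusted p = 0.842, range -0.17 to 0.02). ETS2 was at 7.54 ± 0.14 and 7.82 ± 0.22 (difference -0.28, SE 0.13, adjusted p = 0.400). KLF5, named after its values were seen, had the largest difference of the list. It was at 7.83 ± 0.45 and 7.23 ± 0.05 (difference 0.60, SE 0.21, adjusted p = 0.239). Its groups did not overlap, with KHSRP siRNA replicate 1 at 7.33 and the highest scramble array at 7.28. The KHSRP siRNA arrays lay all above for 5 of 20 and all below for 1, beside 11.6% and 7.82% of all tested genes.

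The other cytoskeletal genes, of actin, microtubules and their linkers, had 1 of 31 past the threshold as higher, 0 as lower, and a median difference of 0.11. Unadjusted, 7 were higher and 0 lower at a p under 0.05, beside 8.51% and 5.89% of all tested genes. RDX, radixin, which links actin to the membrane, rose from 9.34, 9.26 and 9.29 to 9.97, 9.94 and 9.96, by 0.66 (SE 0.07, limma adjusted p = 0.0438). Over the alternatives that p ran from 0.0205 to 0.156, and RDX did not pass in 9. TUBA1B, an alpha-tubulin gene, was at 16.00 ± 0.09 and 15.88 ± 0.07 (difference 0.11, SE 0.09, adjusted p = 0.655, range 0.06 to 0.17). MYL6, a myosin light chain gene, was at 14.13 ± 0.05 and 13.65 ± 0.18 (difference 0.48, SE 0.11, adjusted p = 0.0969), without passing.

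**Figure D4:**
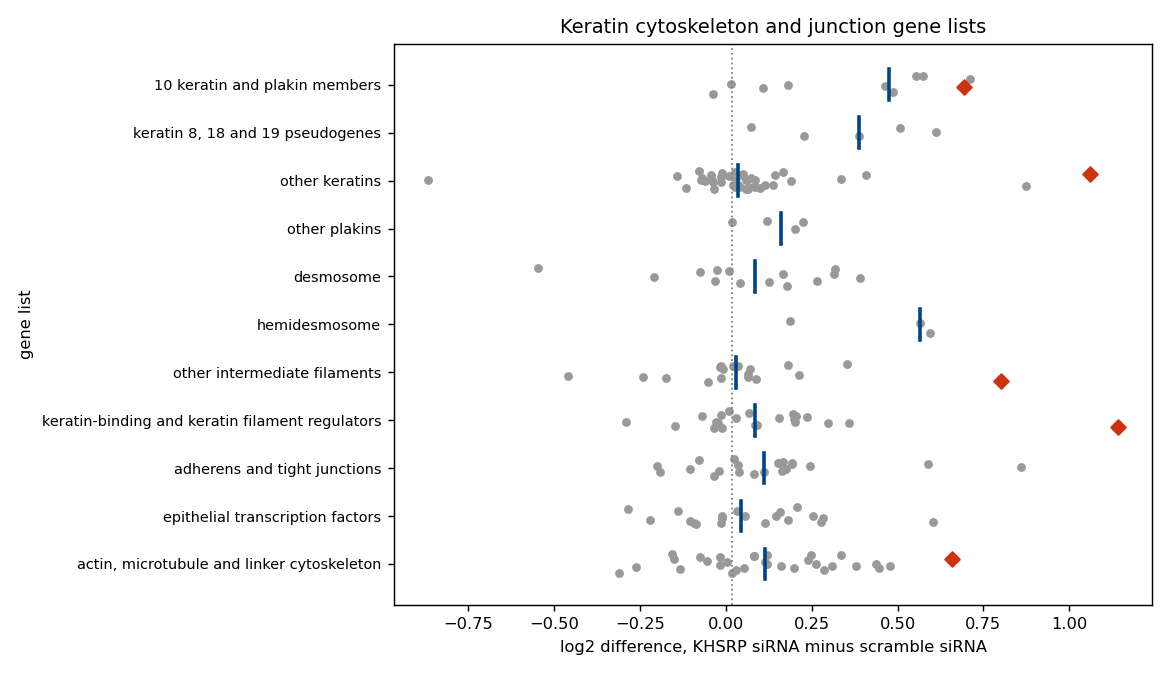
Difference in log2 intensity for the 10 genes and for each list (points), with the list's median (vertical bars). Diamonds are genes past limma's adjusted threshold of 0.05 over all genes, and the dotted line is the median over all tested genes, 0.02. The diamonds are EPPK1, KRT5, NES, KRTCAP2 and RDX, and no listed gene passed as lower. EPPK1 is among the 10 genes, which this contrast chose, so its diamond is a description and no test.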

How the data were processed

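RNA of 6 SW480 samples was amplified, made into biotinylated cDNA and put on Affymetrix arrays, per the labels' protocols. The authors deposited 70523 rows of log2 intensities made with Affymetrix Expression Console, RMA and Transcriptome Analysis Console on hg19, per the submitters' processing notes, which give no versions. Arrays carry no read depth, and their number limits precision.

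Rows with 1 annotated symbol (23781) were named through the platform annotation and a RefSeq table of GRCh38.p14; KHSRP, on a row with several symbols, was kept as an exception. The brightest row per gene gave 22412 genes, tested with lmFit and eBayes of limma 3.58.1 under R 4.3.3, two-sided, with Benjamini-Hochberg adjustment over all genes, and the procedure was tested on simulated data. The labels say biological replicate without naming separate cultures, so p-values measure only the spread between these samples. The genes and lists were chosen with earlier results of these data known. Named genes were the 10 genes, KHSRP, the called genes of each list and, where fewer than 2 were called, its 2 brightest. Cell type markers and the genes nearest in profile are named besides, and others are marked in the text. Alternatives were the replicate block, quantile normalization again, median centring, genes above the median level only, averaged rows, trend with robust prior, array weights and leaving out each array. Promoter sequences are RefSeq's.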

Additional observations from a re-analysis of the deposited data

How the results depend on the processing

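The median difference over the 10 genes stayed above 0 under all 13 alternatives, from 0.43 to 0.53 (0.43 to 0.53 when arrays were left out). This contrast chose the genes and the alternatives use the same arrays, so that stability is no test of them. The number of genes past limma's threshold, 170, did not hold: it was 32 after quantile normalization again, 0 after centring on array medians, 433 of 11206 among genes above the median level, 0 with limma's trend and robust options, 704 when arrays were weighted, 173 when the rows of a gene were averaged, and 0 to 329 when arrays were left out (0 without KHSRP siRNA replicate 2 or 3 or scramble replicate 2 or 3, 1 without scramble replicate 1, 329 without KHSRP siRNA replicate 1). At an unadjusted p under 0.05 limma had 3227 genes, 3111 after centring and 3097 with the trend. Same-numbered arrays had deviation correlations of 0.16, 0.06 and -0.08. The labels state no pairing, and with 3 arrays per group these values cannot settle whether the numbers pair the samples. The fit with the replicate number as a block called 1 gene. Higher calls were 114 of 170, and 11 of 32 after quantile normalization again.

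EPPK1 passed with genes above the median level (with KRT8 and KRT18), with the mean of rows, with array weights (with KRT8, KRT18 and KRT23) and without KHSRP siRNA replicate 1 (with KRT8, KRT23 and KRT80), and not in the other 9. Over all tested genes, these settings called, in that order, 433 of 11206, 173 of 22412, 704 of 22412 and 329 of 22412. The main fit called 170 of 22412. This contrast chose EPPK1 and the genes named with it, so nothing is read from which of them passed. The 1 call each in other keratins, other intermediate filaments, keratin filament regulators and the actin list became 0 with the replicate block, median centring and the trend with robust prior, and for the last 3 lists also after quantile normalization again. Other keratins had 3 calls and pseudogenes 1 among genes above the median level, where 433 of 11206 genes passed. With array weights, pseudogenes had 2, other keratins 3, desmosomes 1 and adherens and tight junctions 1, where 704 of 22412 genes passed. Leaving out arrays gave 0 to 2 calls in other keratins, hemidesmosomes and adherens and tight junctions, and 0 to 1 in pseudogenes, other intermediate filaments, transcription factors and the actin list, and 0 in keratin filament regulators. Over all 22412 tested genes, leaving out arrays gave 0 to 329 calls.

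Signs turned only near 0, for the genes named in this paragraph. After quantile normalization again PLEC was -0.0401, DST -0.0321 and CDH1 -0.0108. After centring PLEC was -0.0103 and DST -0.00632. With array weights DST was -0.0476 and PNN -0.0257. When arrays were left out PLEC ran from -0.127 to 0.190, DSP from -0.210 to 0.0733, DST from -0.0997 to 0.120, PNN from -0.0748 to 0.103, CDH1 from -0.0191 to 0.0862, SP1 from -0.172 to 0.0170 and KRT71 from -0.0596 to 0.105. KRT8 was 0.830 when its rows were averaged, and EPPK1 0.647 after quantile normalization again. Causes were not tested.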
